A study of Mus musculus with 18 samples.

Results

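Albumin and 9 other plasma proteins made by the liver were followed at the transcript level in livers of mice that carry 1 or 2 working alleles of Otub2, the gene of an OTU deubiquitinase. The 10 genes were taken by symbol from the 55291 rows of the liver count table: Alb, Afp, Gc, Ttr, Rbp4, Ahsg, Fetub, Ambp, Itih4 and Apoh. Liver libraries came from 5 heterozygotes (OTUB2 +/-, called HET 1 to HET 5) and 2 wild types (OTUB2 +/+, WT 1 and WT 2). The labels name normal housing and no drug or diet, and neither sex nor age of the liver donors was given in the sources used here. Pancreas libraries came from 3 male homozygotes (HOM, OTUB2 -/-), 5 HET of both sexes and 3 WT of both sexes, and are used only for levels. No homozygous livers were analysed here, and how the Otub2 allele was made was not given. The labels do not say that each library is a separate animal, so p-values measure the spread between these libraries.

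Hepatocytes secrete most of the protein of blood plasma. Albumin carries fatty acids, bilirubin and hormones and holds the osmotic pressure of plasma, and smaller carriers move vitamins, hormones and haem breakdown products or restrain calcification and proteases. Several of these genes, among them Alb, Ttr, Rbp4 and Ahsg, are known as negative acute-phase genes, whose liver output drops in inflammation while that of the serum amyloid A genes climbs.

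The liver libraries held 264660 to 1686234 counts in HET and 155201 and 342609 in WT. Otub2 itself had 1, 0, 1, 1 and 2 counts in HET 1 to HET 5 and 1 and 0 counts in WT 1 and WT 2, too few to check the labels. All 10 hepatocyte markers had counts, and the 8 of them outside the plasma carrier set summed to 52218 to 69493 CPM (counts of a gene per 1000000 counts of its library) in HET and to 69216 and 76005 CPM in WT. Markers of Kupffer cells summed to 233 to 607 CPM in HET against 528 to 595 in WT, those of stellate cells to 243 to 412 against 330 to 393, and those of endothelium to 83.3 to 182 against 146 to 174. Bile duct markers summed to 120 CPM in HET 5 and to 11.0 to 31.9 CPM in the other HET livers, against 6.44 and 26.3 CPM in WT. T, B and myeloid cell markers summed to at most 9.31 CPM in HET and 5.84 CPM in WT. HET 5 stood apart as the deepest library. It had 0 counts of the predicted gene Gm10800, against 854 to 1149 CPM in the other HET and 1366 and 1944 CPM in WT. It was the highest of the 7 livers for 21.1% and the lowest for 13.7% of the 4803 genes tested. The second share is close to an equal split among 7 livers, and the shares of the other livers are not given here. Where leaving HET 5 out moves a fitted difference by more than 1.5 times, that value is given too. In bulk tissue, fewer cells of a type and less RNA per cell cannot be told apart.

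Positions place several of these genes side by side. On mm10, Gc (chromosome 5, 89417522 to 89457898, minus strand), Alb (90460897 to 90476602, plus strand) and Afp (90490737 to 90508907, plus strand) are members of the albumin family and lie on 1 chromosome, with 14134 bases between Alb and Afp. The fetuin genes Ahsg (chromosome 16, 22891277 to 22899449) and Fetub (22918334 to 22939778) are 18884 bases apart on the plus strand. Itih4 lies on chromosome 14 (30886476 to 30902353, plus strand), Ambp on chromosome 4 (63143275 to 63154799, minus), Rbp4 on chromosome 19 (38116629 to 38125281, minus) and Apoh on chromosome 11 (108343354 to 108414396, plus). In GENCODE an exon of Apoh overlaps an exon of Prkca and an exon of Ahsg one of the predicted gene Gm30505. Counts of Apoh and Ahsg are uncertain to that extent, since the use of strand in counting was not given.

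The promoters of the 3 albumin family genes of the set are shown because their transcripts had very different levels in the same livers. Each sequence is the 150 bases before the transcription start in RefSeq (GRCm38.p6, 5′ to 3′ on the gene's strand). Capitals mark matches, on either strand, to CCAAT (the CCAAT box) and to TATAAA (the TATA box). Of 32851 promoter windows of this length in the RefSeq table, 24.5% held CCAAT and 7.57% TATAAA. The windows are chr5:90460720-90460869 (plus strand) for Alb, chr5:90490564-90490713 (plus strand) for Afp and chr5:89457899-89458048 (minus strand) for Gc. GENCODE, used for the positions above, starts Alb at 90460897 and Afp at 90490737. The Alb and Afp windows end short of those starts, and the bases between are not shown.
Alb: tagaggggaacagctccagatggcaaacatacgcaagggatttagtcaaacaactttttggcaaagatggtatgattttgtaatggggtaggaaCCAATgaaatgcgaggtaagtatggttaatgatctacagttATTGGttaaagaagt
Afp: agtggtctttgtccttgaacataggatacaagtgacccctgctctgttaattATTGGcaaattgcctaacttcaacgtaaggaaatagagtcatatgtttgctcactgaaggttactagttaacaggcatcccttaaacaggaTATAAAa
Gc: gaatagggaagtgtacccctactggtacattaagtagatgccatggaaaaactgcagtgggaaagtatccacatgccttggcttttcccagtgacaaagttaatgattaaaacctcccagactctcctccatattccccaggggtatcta
CCAAT was matched at 2 places in Alb, 1 in Afp and 0 in Gc. TATAAA was matched once, in Afp. No match overlapped another. These matches describe the letters only.

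Alb was the most abundant of the set. It had 33895, 28538, 12331, 11112 and 27811 CPM in HET 1 to HET 5, against 26746 and 18984 CPM in WT 1 and WT 2. HET 3 and HET 4 were below both WT livers and the other 3 HET livers above both, so the groups overlapped, and HET livers differed among themselves by 3.05-fold. The HET mean was 22737 CPM (SD 10336, n = 5) and the WT mean 22865 CPM (SD 5489, n = 2). The fitted log2 fold change, HET over WT, was 0.07 ± 0.40 (SE; edgeR adjusted p = 0.968), with a 95% interval of −0.80 to 0.93, and 0.01 ± 0.51 without HET 5 (adjusted p = 0.996). Red cell markers summed to 10848, 4377, 1530, 2021 and 2767 CPM in HET 1 to HET 5, against 4549 and 6704 CPM in WT, with the highest liver and the lowest pair the same as for Alb, and their part in the Alb values was not tested. Over the 7 livers Alb ranked between place 2 and place 9 of all genes of a library.

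Gc encodes the vitamin D binding protein. It had 698, 694, 289, 348 and 1921 CPM in HET 1 to HET 5, against 851 and 306 CPM in WT 1 and WT 2. HET 5 was the highest liver, HET 3 and WT 2 were the lowest, and HET livers spanned 6.64-fold, the widest span among the 9 genes with a tested level. In the smallest library, WT 1, the value rests on 132 counts, with a Wilson interval at 95% confidence of 717 to 1008 CPM, which covers counting error only. The log2 fold change was 0.51 ± 0.81 (edgeR adjusted p = 0.878; 95% interval −1.41 to 2.44), and −0.05 ± 0.55 without HET 5 (adjusted p = 0.977).

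Afp, the fetal counterpart of albumin, had 1 count in HET 3, 2 counts in HET 5 and 0 in the other 3 HET livers, against 0 in both WT livers. A count of 0 allows up to 6.03 CPM over the WT group, and the 3 counts in HET are at the limit of detection, so no fold is given. It did not pass the filter on low counts. Alb in the same livers had 11112 to 33895 CPM.

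**Figure D1:**
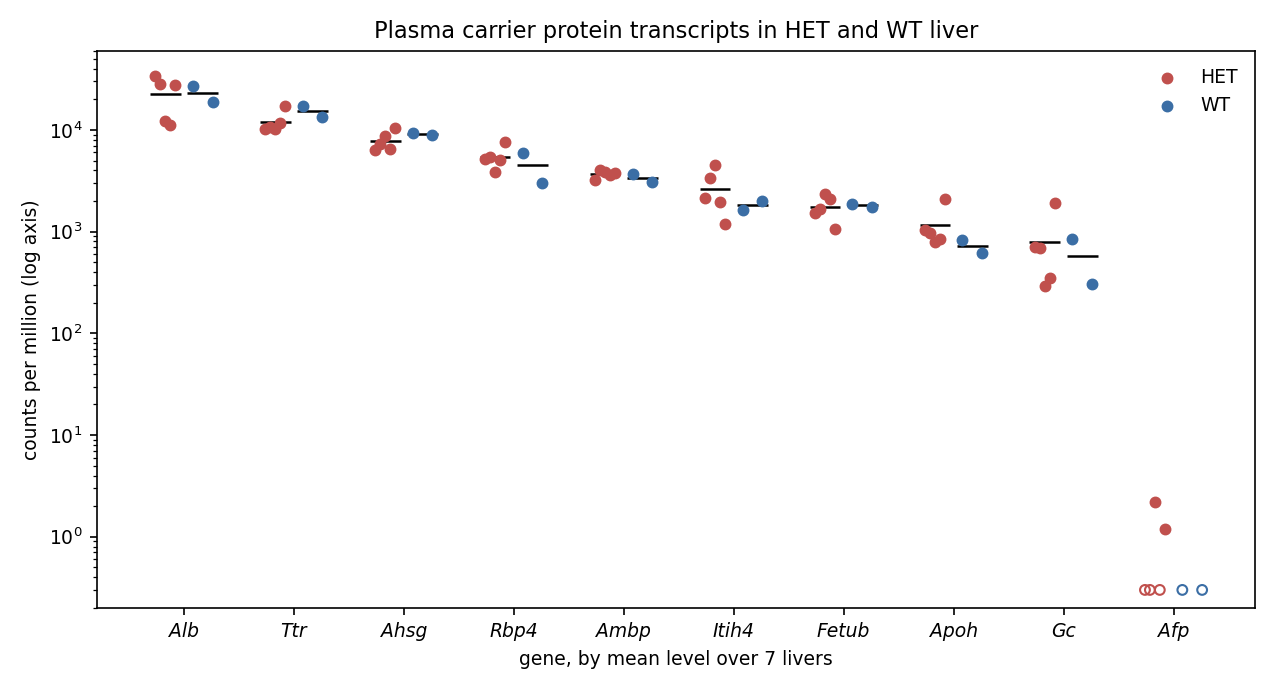
Levels of the 10 genes in each liver library (vertical axis, CPM, log scale), with HET livers in red left of WT livers in blue. Filled points are libraries in replicate order, black bars are group means (none for Afp), and open points at the lower edge are libraries with 0 counts. The 9 genes above Afp have mean levels of 730 (Gc) to 22774 CPM (Alb) over the 7 livers, and no gene has groups that do not overlap.

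Ttr and Rbp4 encode transthyretin, a carrier of thyroxine, and the retinol-binding protein that travels in complex with it. Ttr had 10267, 10622, 10246, 11747 and 17252 CPM in HET 1 to HET 5, against 17017 and 13502 CPM in WT 1 and WT 2. The first 4 HET livers lay below both WT livers. HET 5 had the highest value (Wilson interval 17057 to 17450 CPM). It was the same within counting error as WT 1 (16385 to 17672 CPM). For Ttr the log2 fold change was −0.27 ± 0.28 (edgeR adjusted p = 0.774; 95% interval −0.85 to 0.31), and −0.40 ± 0.22 without HET 5 (adjusted p = 0.414).

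Rbp4 had 5175, 5438, 3891, 5082 and 7667 CPM in HET 1 to HET 5, against 5908 and 3036 CPM in WT 1 and WT 2. HET 5 was again highest, and the lowest value was that of WT 2. The fit gave Rbp4 0.35 ± 0.32 (log2 fold change; edgeR adjusted p = 0.734; 95% interval −0.32 to 1.03), and 0.23 ± 0.27 without HET 5 (adjusted p = 0.755). Within a library, Ttr counts were 1.95 to 2.63 times those of Rbp4 in HET, against 2.88 and 4.45 times in WT. This ratio does not depend on how libraries are scaled, and its groups did not overlap. Of the 36 ratios between 2 of the 9 genes, 3 had groups that did not overlap: Ttr to Rbp4, Ttr to Apoh (8.23 to 13.8 in HET, at least 20.5 in WT) and Ahsg to Apoh (5.01 to 10.8 in HET, 11.1 and 14.4 in WT). Each of the 3 holds Ttr or Apoh, and none was tested. Among all ratios between 2 of the 4552 tested genes with counts in every liver, 16.7% had groups that did not overlap.

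Ahsg and Fetub encode the fetuins, of which fetuin-A, from Ahsg, keeps calcium phosphate in solution, and fetuin-B, from Fetub, inhibits the protease ovastacin. Ahsg had 6310, 7232, 8646, 6552 and 10493 CPM in HET 1 to HET 5, against 9265 and 8829 CPM in WT 1 and WT 2. As for Ttr, 4 HET livers were below both WT livers. For Ahsg, HET 5 was above both. The fit gave Ahsg −0.12 ± 0.28 (log2 fold change; edgeR adjusted p = 0.916; 95% interval −0.71 to 0.47), and −0.22 ± 0.23 without HET 5 (adjusted p = 0.726).

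Fetub had 1519, 1677, 2367, 2105 and 1070 CPM in HET 1 to HET 5, against 1875 and 1745 CPM in WT 1 and WT 2. Here HET 5 was the lowest liver and HET 3 the highest, with both WT livers in between. The log2 fold change was 0.05 ± 0.33 (edgeR adjusted p = 0.969; 95% interval −0.63 to 0.74), and 0.20 ± 0.25 without HET 5 (adjusted p = 0.775). Ahsg counts were 4.15, 4.31, 3.65, 3.11 and 9.80 times those of Fetub in HET 1 to HET 5, against 4.94 and 5.06 times in WT, so that HET 5 alone lay above WT.

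Ambp encodes a precursor that is cut into the lipocalin alpha-1-microglobulin and the protease inhibitor bikunin, the light chain of the inter-alpha-inhibitor family to which Itih4 belongs. Ambp was the steadiest gene of the set, at 3246, 4063, 3845, 3563 and 3774 CPM in HET 1 to HET 5, against 3666 and 3088 CPM in WT 1 and WT 2. Its highest liver was 1.32 times its lowest. Its log2 fold change was 0.22 ± 0.27 (edgeR adjusted p = 0.830; 95% interval −0.35 to 0.80).

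Itih4, which is an acute-phase gene in human, had 2116, 3371, 4544, 1953 and 1181 CPM in HET 1 to HET 5, against 1649 and 1996 CPM in WT 1 and WT 2. HET 3 and HET 2 were the highest and HET 5 the lowest. Saa1, the serum amyloid A gene, ran at 544, 4326, 8821, 510 and 77.1 CPM in HET 1 to HET 5, against 567 and 703 CPM in WT, with its highest and lowest values in the same livers as Itih4. The part of the acute-phase state in the Itih4 values was not tested. The log2 fold change of Itih4 was 0.66 ± 0.47 (edgeR adjusted p = 0.657; 95% interval −0.35 to 1.67), and 0.85 ± 0.35 without HET 5 (adjusted p = 0.311). HET 5, lowest in Saa1, was highest for Rbp4 and Ahsg, and for Ttr was level with WT 1 within counting error. HET 3, highest in Saa1, was lowest of the HET livers for Rbp4, but not low for Ahsg. Its Ttr level (10246 CPM) was the same within counting error as that of HET 1 (10267 CPM), where Saa1 was 544 CPM. HET 2, also high in Saa1, had 10622 CPM of Ttr and 5438 CPM of Rbp4, and only HET 5 was higher in Rbp4 among HET livers. For Alb, HET 2 and HET 3, both high in Saa1, had 28538 and 12331 CPM of Alb, and HET 4, with low Saa1, had 11112.

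Apoh encodes beta-2-glycoprotein I, which binds phospholipids and heparin. It had 1048, 977, 798, 850 and 2096 CPM in HET 1 to HET 5, against 831 and 613 CPM in WT 1 and WT 2. Of the HET livers 4 were above both WT livers and HET 3 lay between them. The log2 fold change of 0.75 ± 0.35 was the largest of the set in this fit and had an unadjusted p of 0.0499 (edgeR; adjusted p = 0.483; 95% interval 0.00 to 1.49), and 0.46 ± 0.24 without HET 5 (adjusted p = 0.403).

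**Figure D2:**
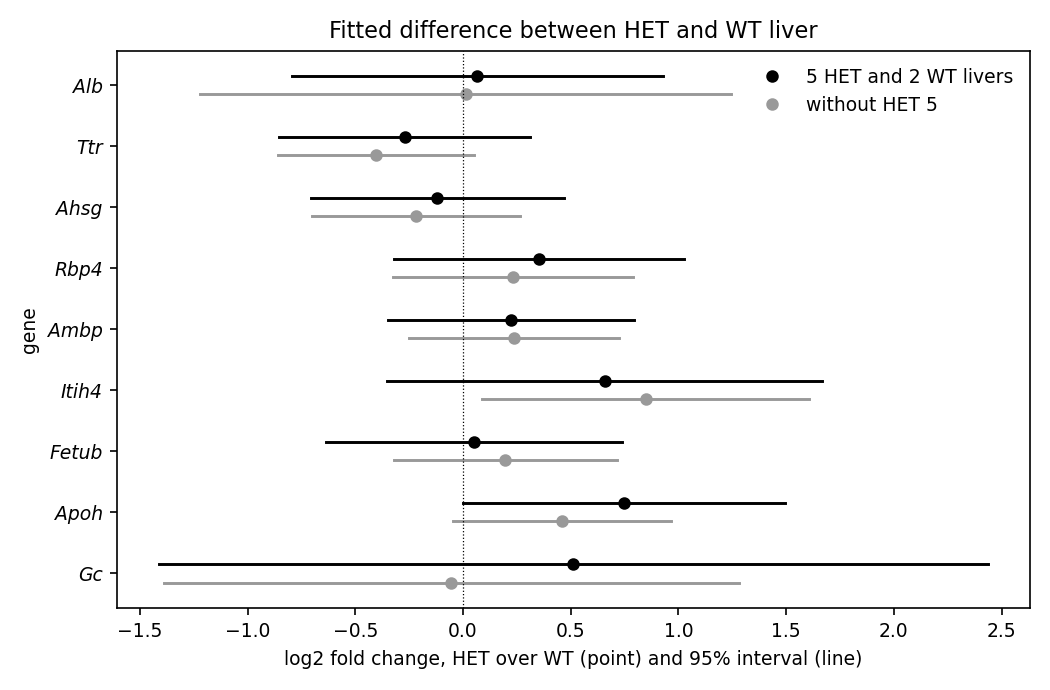
Fitted log2 fold change of HET over WT liver (horizontal axis) for the 9 genes tested, with 95% intervals from the edgeR fit as lines. Black is the fit of 5 HET and 2 WT livers and grey the fit without HET 5. Without HET 5 the point of Gc goes to −0.05 and that of Itih4 to 0.85.

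None of these differences passed the test. Of the 9 genes that passed the filter on low counts (Afp did not), 0 had an adjusted p under 0.05, where the edgeR fit called 0 of 4803 genes (0%) and DESeq2 called 16, none of them a plasma carrier gene of the set. At an unadjusted p under 0.05 there was 1 of 9, Apoh, which was higher in HET, where 497 of 4803 genes (10.3%) reached that level and 259 (5.39%) were higher. Groups that did not overlap were found for 0 of 9, against 18% of all genes tested. Without HET 5, both Ttr and Ahsg were lower in every HET than in either WT liver, 2 of 9 genes, where 15.4% of all genes were lower without overlap. Under the same rule 0 of 9 were higher, where 9.47% of all genes were, and 24.9% of all genes did not overlap in either direction. HET 5 was the highest liver for 5 of 9 (Gc, Ttr, Rbp4, Ahsg and Apoh) and the lowest for 2 of 9 (Fetub and Itih4). These shares are to be read against the 21.1% and 13.7% given above. For Ttr, WT 1 was the same as HET 5 within counting error. A gap that set 1 HET liver apart by Dixon's criterion, found for Gc, Ttr and Apoh, occurred for 8.62% of all genes. With 2 WT livers the intervals are wide, so these results do not show that the levels were equal.

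The summed RNA quality genes and the summed acinar cell markers had groups that did not overlap, as had 18% of all single genes tested. The 7 RNA quality genes, of which 6 had counts, summed to 919 to 3103 CPM in HET, against 3673 and 5508 CPM in WT. Malat1, a nuclear long noncoding RNA, had 140 to 250 CPM in HET, against 367 CPM in WT 1 and 1635 CPM in WT 2. Its log2 fold change was −2.33 ± 0.39 (edgeR adjusted p = 0.0681), and it passed the threshold with DESeq2 (adjusted p = 0.000256). Without WT 1 the log2 fold change was −2.96 and rested on WT 2 alone. The 6 acinar cell markers, of which 3 had counts and Cpa1, Prss1 and Amy2a5 had 0, summed to 95.6 to 192 CPM in HET. In WT they summed to 70.9 CPM in WT 1 (11 counts) and 37.9 CPM in WT 2 (13 counts). Their part in the values of the plasma carrier genes was not tested.

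Together the 10 genes took 6.43%, 6.26%, 4.70%, 4.33% and 7.33% of all counts in HET 1 to HET 5, against 6.78% and 5.21% in WT 1 and WT 2. Wilson intervals at 95% confidence, for counting error only, were 4.25% to 4.41% for HET 4 and 6.66% to 6.91% for WT 1. The groups overlapped. The HET mean was 5.81% (SD 1.26, n = 5) and the WT mean 5.995% (SD 1.11, n = 2), a difference of −0.19 percentage points, and of −0.57 without HET 5. Most of the spread was Alb, which made up 52.7%, 45.6%, 26.3%, 25.7% and 38.0% of the summed counts in HET 1 to HET 5, against 39.4% and 36.4% in WT. Without Alb the share was 3.04% to 4.55% in HET, against 4.11% and 3.31% in WT.

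**Figure D3:**
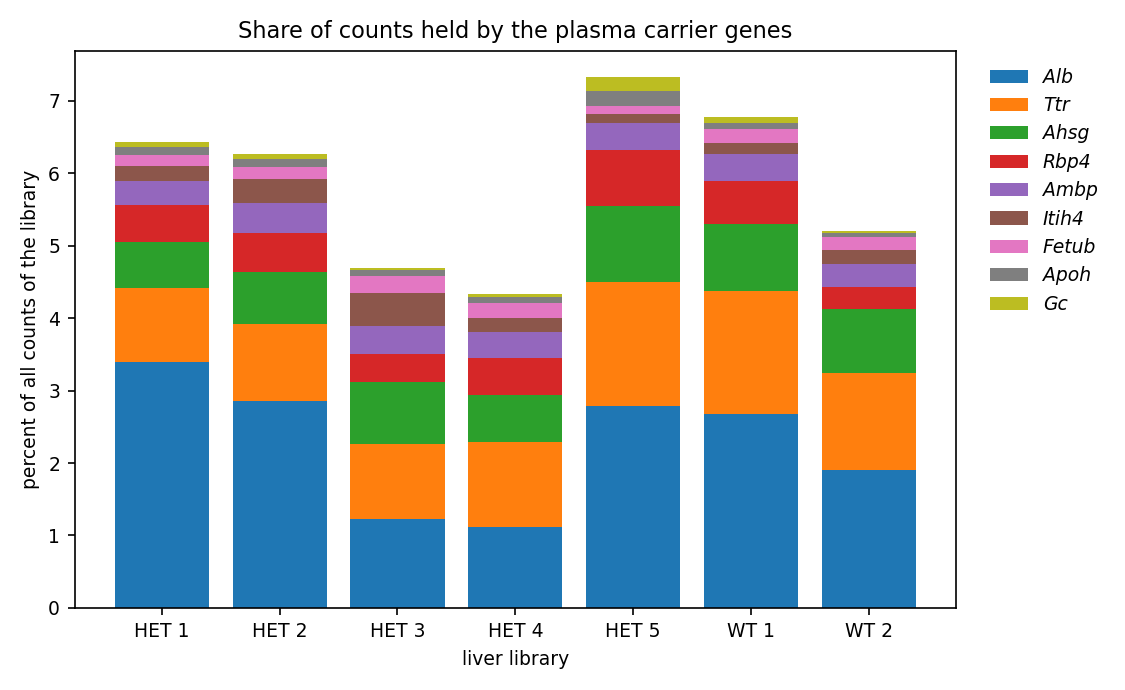
Percent of all counts of each liver library (vertical axis) held by the plasma carrier genes, stacked by gene, with the 5 HET livers left of the 2 WT livers. Afp is not drawn. The stacks reach 4.33% in HET 4 to 7.33% in HET 5, and the Alb segment is smallest in HET 3 and HET 4.

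The order of levels was Alb, Ttr, Ahsg, Rbp4, Ambp, Itih4, Fetub, Apoh, Gc and Afp by mean CPM over the 7 livers. MARS-seq counts 3′ ends, so a count does not grow with transcript length. The means ran from 22774 CPM for Alb through 12951 for Ttr, 8190 for Ahsg, 5171 for Rbp4, 3606 for Ambp, 2402 for Itih4, 1766 for Fetub and 1030 for Apoh to 730 for Gc and 0.483 for Afp. Ttr was above Ahsg, Ahsg above Rbp4 and Gc above Afp in 7 of 7 livers. Alb was above Ttr in 6, all but HET 4, with a mean log2 difference of 0.74 ± 0.63 (SD, n = 7). Itih4 and Fetub (0.35 ± 0.48, in order in 5 of 7 livers) and Fetub and Apoh (0.84 ± 0.88, in order in 6) did not differ beyond the SD of their difference.

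Relations among the genes across livers were computed for all 36 pairs of the 9 genes on log2(CPM + 1). Over 7 livers, Gc and Rbp4 had Pearson r = 0.89 (exact permutation p = 0.00357, adjusted p = 0.129 over 36 pairs) and Spearman rho = 0.93 (exact permutation p = 0.00675), and r = 0.78 without HET 3 and HET 5, the livers farthest from the median of Gc. Gc and Apoh had r = 0.87 (exact permutation p = 0.0137, adjusted p = 0.161; rho = 0.75, exact permutation p = 0.0663) and r = 0.69 without these livers. Gc and Fetub had r = −0.86 (exact permutation p = 0.0147, adjusted p = 0.161; rho = −0.71, exact permutation p = 0.0881), which was −0.42 without them. Rbp4 and Apoh had r = 0.85 (exact permutation p = 0.0179, adjusted p = 0.161) and 0.39 without HET 5 and WT 2. Ttr and Itih4 had r = −0.81 (exact permutation p = 0.0304, adjusted p = 0.219; rho = −0.93, exact permutation p = 0.00675), and −0.61 without HET 5 and WT 1. No pair passed after adjustment, by r or by rho. The CPM values of a library share 1 total, and HET 5 holds the highest Gc, Rbp4, Apoh and Ttr. Without HET 5 alone, r was −0.88 for Alb and Fetub (−0.71 over 7 livers, rho = −0.82), 0.85 for Alb and Gc (0.74 over 7 livers), 0.81 for Gc and Rbp4, 0.81 for Rbp4 and Apoh, 0.66 for Gc and Apoh, −0.63 for Gc and Fetub and −0.70 for Ttr and Itih4.

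**Figure D4:**
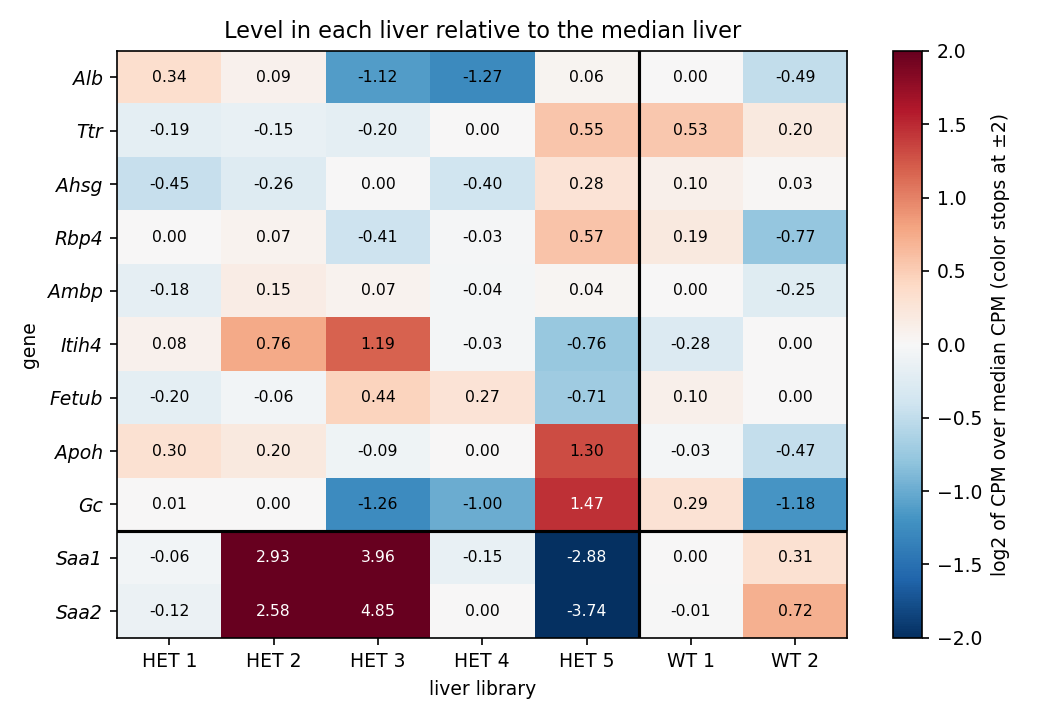
Log2 of the CPM in each liver over the median CPM of the 7 livers (color and printed value, color stopping at 2 in either direction), with the 5 HET livers left of the 2 WT livers. The upper 9 rows are plasma carrier genes and the lower 2 rows Saa1 and Saa2. HET 5 is high for Gc (1.47) and Apoh (1.30) and low for Itih4 and Fetub, and HET 3 is low for Gc and Alb and high for Itih4 and Saa1.

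The 5 genes outside the set with the highest Pearson r to Alb, of 1253 genes with a mean of at least 100 CPM, were Adk, Slc37a4, Uox, Slc27a2 and Slc7a2. Adk encodes adenosine kinase, Slc37a4 the glucose-6-phosphate transporter, Uox urate oxidase, Slc27a2 a fatty acid transporter and acyl-CoA synthetase, and Slc7a2 a transporter of cationic amino acids. Over 7 livers r was 0.97 for Adk (rho = 0.89), 0.96 for Slc37a4 (rho = 0.89), 0.95 for Uox (rho = 0.96), 0.94 for Slc27a2 (rho = 0.86) and 0.91 for Slc7a2 (rho = 0.71). Exact permutation p values of r were 0.000595 to 0.00635, and 0.290 to 0.650 adjusted over the 1253 genes, so none passed. Uox ran at 759, 470, 206, 102 and 543 CPM in HET 1 to HET 5, against 445 and 397 CPM in WT, with HET 3 and HET 4 lowest as for Alb. Without HET 3 and HET 4, r was 0.60 (Slc7a2) to 0.84 (Slc37a4).

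Other genes of the same system were read from the same fit. Of 34 further plasma carriers and secreted liver proteins, 32 were tested and 0 passed, with a median log2 fold change of 0.17, against 0.03 over all 4803 genes. The smallest p values in this list belonged to the protease inhibitor genes Serpina10 (log2 fold change 0.86 ± 0.34, edgeR adjusted p = 0.393) and Serpinc1, antithrombin (0.61 ± 0.28, adjusted p = 0.470), to Selenop, the plasma selenium carrier (1.00 ± 0.46, adjusted p = 0.483), and to Cpn1, a carboxypeptidase subunit (−0.56 ± 0.27, adjusted p = 0.487). The albumin superfamily gene Albfm1, outside these lists, stood at −1.11 ± 0.41 (log2 fold change; edgeR adjusted p = 0.376; 95% interval −1.96 to −0.26). Its unadjusted p was 0.0137 (edgeR), where 10.3% of all genes tested were under 0.05. Afm, an albumin family gene next to Afp, had 216, 219, 164, 196 and 298 CPM in HET 1 to HET 5. In WT it had 296 and 231 CPM (edgeR log2 fold change −0.17 ± 0.31, adjusted p = 0.892). Afm had its highest value in HET 5 and its lowest in HET 3, as had Gc. The Afm values of WT 1, HET 4 and HET 3 rest on 46, 52 and 75 counts, too few to settle these ranks. For Gc, HET 3 and WT 2 were the same within counting error.

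Receptors and handling proteins of these carriers gave 9 tested genes of 17, of which 0 passed (median −0.02). Their summed level was 2505 to 2799 CPM in HET, against 2828 and 3048 CPM in WT, without overlap. Of all single genes tested, 18% had groups that did not overlap, and the sum was not tested. Fcgrt, the receptor that returns albumin to the circulation, stood at −0.02 ± 0.29 (edgeR adjusted p = 0.989). Transcription factors of liver promoters gave 17 tested genes of 24, of which 0 passed (median 0.17). Onecut1 had the smallest p (2.40 ± 1.09, edgeR adjusted p = 0.472), and Hnf4a stood at 0.01 ± 0.30 (adjusted p = 0.997). Positive acute-phase genes gave 21 tested of 24, of which 0 passed, with a median of 0.57. Their summed level was 19291 to 75543 CPM in HET, against 24472 and 29862 CPM in WT, with the highest values in HET 3 and HET 2. Orm1, an orosomucoid gene, had the smallest p among them (1.43 ± 0.63, edgeR adjusted p = 0.478).

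In the 11 pancreas libraries of the series (HOM, HET and WT), these genes were nearly absent. Alb, Ahsg, Rbp4, Ambp, Itih4 and Apoh had 0 counts in all 11, which allows up to 7.80 CPM over the HOM group, 1.31 CPM over HET and 9.00 CPM over WT. The HET limit rests mostly on HET 11 (1326541 counts), and single pancreata allow up to 60.6 CPM. Afp had 2 counts and Gc 1 in all. Fetub was counted in HET 11 (105 counts, 79.2 CPM) and HET 16 (149 counts, 222 CPM) and Ttr in HET 11 (45 counts, 33.9 CPM) and HET 15 (2 counts), with 0 in the other pancreata, HOM and WT included. HET 11 and HET 16 were also by far the highest in the stomach gene Pgc, at 124513 and 120199 CPM, against 0 to 10020 CPM in the other 9 pancreata. They were also highest in the pancreatic gene Clps, at 141867 and 38016 CPM, against at most 10442 CPM in the others, and in the apolipoprotein gene Apoa1, at 3793 and 2808 CPM, against at most 566 CPM. The part of these in the Fetub and Ttr counts was not tested.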

How the data were processed

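RNA from liver and pancreas was turned into libraries with MARS-seq adapted to bulk RNA, per the labels' protocols. MARS-seq is known to read 3′ ends. The submitters' processing notes name cutadapt, STAR and mm10. For the counting tool, annotation, strand setting and versions, nothing was given in the sources used here. Tables deposited by the authors hold whole-number counts per gene symbol. They are named corrected without the kind of correction, whose effect on high counts such as those of Alb and on p-values is unknown.

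Liver counts were tested with edgeR 4.0.16 in R 4.3.3 (filterByExpr, TMM, robust quasi-likelihood F test, genotype only, Benjamini-Hochberg over 4803 genes, threshold 0.05). The common dispersion was 0.125 (5 residual degrees of freedom) and TMM factors ran from 0.909 to 1.09. SE are the size of the log2 fold change over the square root of its F value. Intervals use the total degrees of freedom of that fit, which add to the residual ones a part borrowed across genes. The fit was also run on simulated counts, with the same dispersion for every gene and changes larger than any fitted for the set. That run checks the working of the code only, not differences as small as those reported here. Correlations used log2(CPM + 1) and exact permutation (two-sided). Positions come from GENCODE mouse release 21 and promoters from RefSeq, which held a window for 9 of the 10 genes. Floors are 3 counts over the total. Alternatives were DESeq2 1.42.0, other scalings and filters, a fit that was not robust, a block for replicate number, and 1 library left out at a time.

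The 10 genes and the lists were chosen with earlier results of these data known. Genes outside the set were named by a rule: up to 4 with the smallest p in a list, Saa1 and Saa2, and the 5 most like Alb. Some genes the rule names are not reported here. Afm, Albfm1, Fcgrt, Hnf4a, Malat1, Neat1, Gm10800, Pgc, Clps, Apoa1 and the acinar markers were named after their values were seen.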

Additional observations from a re-analysis of the deposited data

Results flagged for a closer look

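Among the 5 HET livers, HET 5 was separated from the other 4 by a gap that was large for the range of the group, by Dixon's criterion at 95%, for Gc (1921 CPM), Ttr (17252 CPM), Apoh (2096 CPM) and the ratio of Ahsg to Fetub (9.80). Chance alone flags about 1 in 20 groups, and 8.62% of the 4803 genes tested had such a gap in some HET liver. HET 5 was the deepest liver library and had 0 counts of Gm10800.

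Counts of 2 of the genes appeared in pancreas, outside the liver comparison, where WT pancreata had 0: Fetub with 105 counts in HET 11 and 149 in HET 16, and Ttr with 45 counts in HET 11. The 0 counts of the WT pancreata allow up to 36.9, 47.3 and 15.9 CPM each, so the 33.9 CPM of Ttr in HET 11 could not have been told from WT in 2 of the 3. These WT pancreata also held only 1 count each of the pancreatic gene Clps.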

How the results depend on the processing

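None of the 9 genes tested passed the threshold under any of the 15 alternatives, and their adjusted p lay between 0.187 and 0.9999. Among all genes, 0 were called with edgeR, 16 with DESeq2, 57 with no filter beyond 1 count, 6 with a mean of at least 10 CPM and 41 with the replicate block. With each HET library left out, 0 to 6 were called (1 without HET 1, 6 without HET 5). HET 3, HET 4 and HET 5 have no WT liver of their number, so genotype differences under the replicate block rest on HET 1, HET 2, WT 1 and WT 2 only. With no filter, 1 further plasma carrier, Selenop, was called (edgeR adjusted p = 0.0462), as were Malat1 (7.41e-10) and Neat1 (0.0299), and with a mean of at least 10 CPM Malat1 (0.0258). Scaling by total counts shifted all genes by a median of −0.10 (log2) and gave −0.0171 for Alb and −0.0669 for Fetub, against the main direction. So did the replicate block for Fetub (−0.0657) and no filter for Ahsg (0.0446), where all genes shifted by a median of 0.15, about as far as Ahsg. Leaving out 1 library gave −0.16 to 0.44 for Alb (below 0 without HET 1, HET 2 or WT 2), −0.0616 to 1.51 for Gc (HET 5 or WT 2), −0.22 to 0.0108 for Ahsg (above 0 without WT 1), −0.12 to 0.20 for Fetub (below 0 without HET 3, HET 4 or WT 2), −0.43 to 0.00375 for Ttr (above 0 without WT 1) and −0.0488 to 1.014 for Rbp4 (below 0 without WT 2). Ambp (0.10 to 0.45), Itih4 (0.33 to 0.85) and Apoh (0.46 to 1.07) were higher in HET each time, and Itih4 was above Apoh without HET 5, without WT 2 (0.80 against 0.53) and with the replicate block (0.67 against 0.62), as was Gc without WT 1 (1.51 against 1.07). The cause was not tested. Without a WT liver, the lone one is assumed to vary like HET. Same-numbered livers did not deviate together (r = −0.03 for numbers 1 and 2). With 2 WT livers the WT deviations mirror each other, so this cannot show whether same-numbered livers share more than a number. The difference in summed share was 0.27 percentage points with medians, 0.35 with the replicate block and −0.97 to 0.60 when each library was left out, all within 1 SD. Only 2 WT livers, 1 with 155201 counts, limit every comparison.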
